A study of Mus musculus with 35 samples.

Results

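The alpha v integrin inhibitor cilengitide was compared with vehicle in excision wounds of mice lacking Col5a1 in Col1a2-expressing cells (Col5a1CKO). The comparison holds 8 wounds of the 35 samples in the series, 4 from Col5a1CKO + cilengitide animals and 4 from Col5a1CKO + vehicle animals, chosen by their labels, and 4 wounds of WT + vehicle animals from the same count table are given beside them. Col5a1CKO animals were Col1a2CreERT:Col5a1 fl/fl mice on C57BL/6 that received tamoxifen, so that deletion was limited to cells in which the Col1a2 enhancer drives the recombinase and could be incomplete. WT animals were Cre-negative Col5a1 fl/fl littermates that had also received tamoxifen. Male and female mice of 8 to 12 weeks received a full-thickness wound on the back and either cilengitide at 20 mg/kg each day into the peritoneum, from the day before wounding until harvest, or PBS as vehicle. The tissue was the middle of the wound on day 14, so each library is a mixture of the cell types of that piece of tissue. The labels give the day for the vehicle wounds, and the series design gives it for the cilengitide wounds.

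Collagen V is a minor fibrillar collagen that assembles with collagen I and sets the diameter of the fibrils, and mutations of its genes cause classic Ehlers-Danlos syndrome. Alpha v integrins are receptors that pair the alpha v subunit with a beta 1, 3, 5, 6 or 8 subunit and bind arginine-glycine-aspartate motifs in fibronectin, osteopontin, thrombospondins and the latent form of TGF-beta. Cilengitide is a cyclic peptide carrying that motif and blocks ligand binding by alpha v beta 3 and alpha v beta 5. In a healing wound, keratinocytes migrate over the granulation tissue, express the stress keratins 6, 16 and 17, and return to keratins 1 and 10 once they stratify, while neutrophils and macrophages leave.

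Counts summed to 57447326 to 68266760 per library with cilengitide and to 51211600 to 65387348 with vehicle, and 17276 to 17470 and 16973 to 17495 genes had a count. The vehicle wounds varied more than the cilengitide wounds. Pearson correlations of log2(CPM + 1) between pairs of libraries ran from 0.822 to 0.954 within vehicle and from 0.964 to 0.984 within cilengitide, across 13887 genes, which are not independent replicates. Replicate numbers are names in accession order and do not pair wounds. RNA of Y-linked genes was present in cilengitide 1 and 4 and in vehicle 1, 3 and 4, and Xist RNA was present in cilengitide 2 and 3, whereas vehicle 2 had 0.911 CPM of Xist and no count of the Y-linked genes. No vehicle wound had more than 1.53 CPM of Xist. Nothing in the labels says whether each wound came from its own animal, although the numbers that open the titles are distinct.

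The deleted gene did not separate the groups. Col5a1 stood at 450.3, 255, 237 and 903 CPM in the cilengitide wounds and 1319, 571, 604 and 252 CPM in the vehicle wounds, and at 449 to 2657 CPM in the WT wounds. The cilengitide and vehicle wounds overlapped, and the log2 fold change was -0.58 ± 0.59 (SE), adjusted p = 0.495 by the edgeR quasi-likelihood test (Benjamini-Hochberg adjusted, as are all adjusted p below). Divided by Col1a1 RNA of the same wound, Col5a1 was 0.0122 to 0.0583 with cilengitide and 0.0215 to 0.0568 with vehicle (two-sided exact permutation test, n = 4 per group, p = 0.286), against 0.148 to 0.175 in WT wounds, so every Col5a1CKO wound lay below every WT wound on this ratio although single Col5a1 levels overlapped. Leaving out 1 wound at a time, the Col5a1 log2 fold change ran from -1.08 without cilengitide 4 to -0.05 without vehicle 1.

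Of 15563 genes that passed the count filter, 1008 were higher with cilengitide (6.48%) and 1025 were lower (6.59%) at an adjusted p under 0.05 and a change of at least 2-fold, the rule meant below by "called". The median log2 fold change of all genes tested was -0.06. Lists for stratified epidermis, hair follicle, pigment cells and lipid synthesis held larger shares of higher calls than that, and lists for leukocyte adhesion, macrophages, neutrophils, T and cytotoxic lymphocytes, cytokines, NF-kB feedback and matrix metalloproteinases larger shares of lower calls. The mast cell (6 genes), B and plasma cell (5) and MHC class II (10) lists had no lower call. Where edgeR called no member of a list named below in a direction, DESeq2 and an unadjusted p under 0.05 with at least 2-fold also gave 0, except as stated and except for 1 neutrophil gene (DESeq2) and 1 T and cytotoxic lymphocyte gene and 1 B and plasma cell gene (both) that were higher and 1 sebaceous gene (unadjusted) that was lower. Below, a call is said to be kept or lost with regard to leaving out each of the 8 wounds in turn, unless another setting is named. The calls rested on single wounds to different degrees: without vehicle 4 the higher count was 1674, without vehicle 3 it was 695, and the lower count was 406 without vehicle 3 and 334, 426 and 346 without cilengitide 1, 2 and 3. In the wounds with Y-linked RNA alone (2 cilengitide, 3 vehicle), 45 genes were higher and 2 lower.

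**Figure D1:**
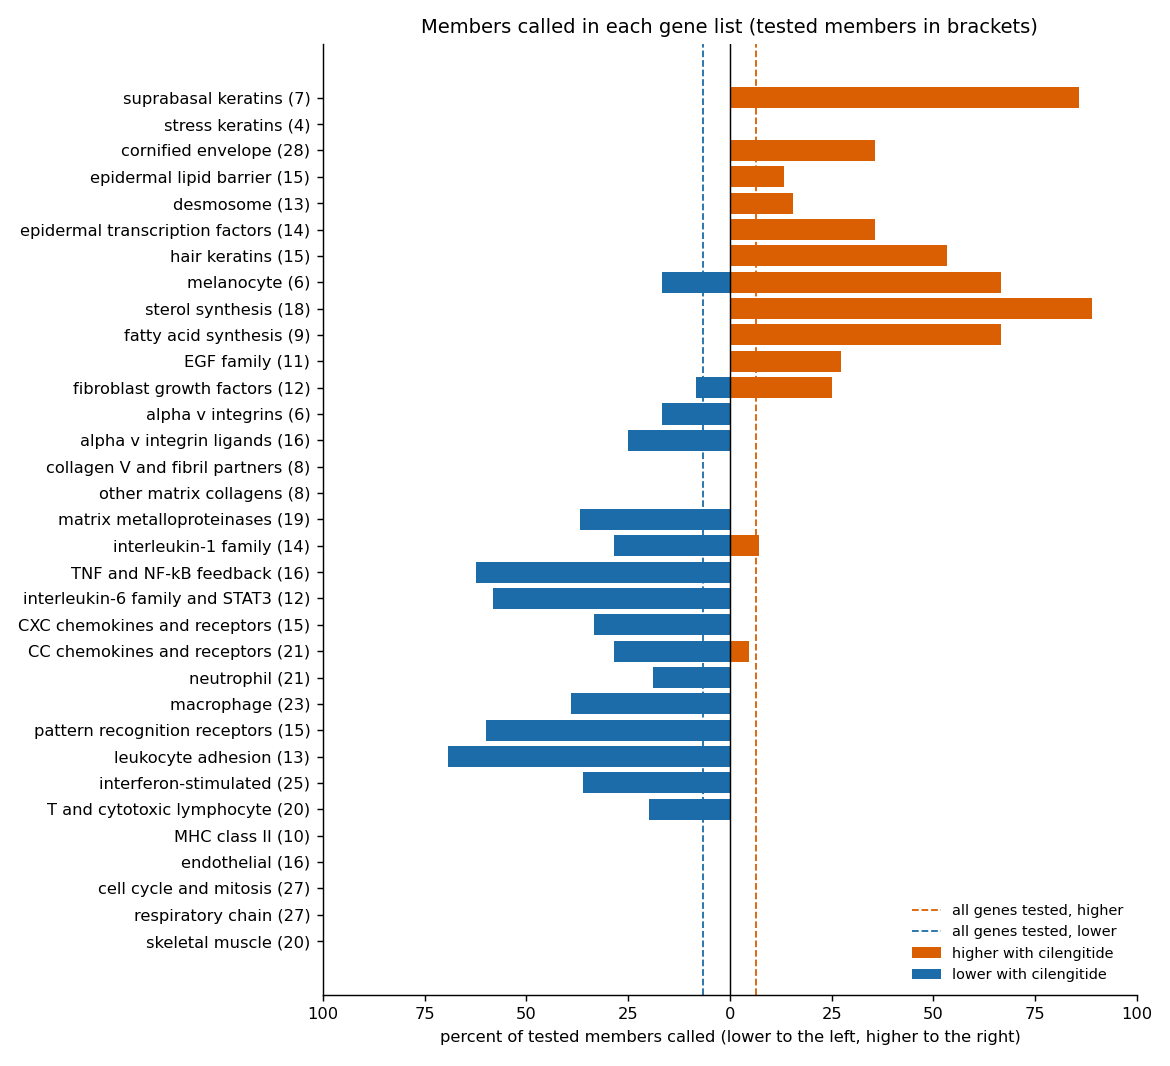
Share of tested members of each gene list called higher (right, orange) or lower (left, blue) in Col5a1CKO + cilengitide against Col5a1CKO + vehicle wounds, 4 wounds each, in percent, with dashed lines at the shares over all genes tested (6.48% higher, 6.59% lower). Sterol synthesis had 16 of 18 members higher, leukocyte adhesion 9 of 13 lower, and the stress keratin, collagen V and fibril partner, other matrix collagen, MHC class II, endothelial, cell cycle, respiratory chain and skeletal muscle lists had no bar.

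Summed keratinocyte and macrophage markers did not overlap between the groups, whereas neutrophil, T cell, fibroblast and red blood cell markers did. The summed level of the keratinocyte markers Krt5, Krt14, Krt1 and Krt10 was 31341 to 65992 CPM with cilengitide, 56.2 to 11002 CPM with vehicle and 58373 to 95772 CPM in WT wounds, and the 4 vehicle wounds held 1642, 56.2, 163 and 11002 CPM. The macrophage markers Cd68, Csf1r, C1qa and Emr1 summed to 442 to 589.7 CPM with cilengitide, 823 to 1404 CPM with vehicle. Neutrophil markers (Csf3r, S100a8, S100a9, Retnlg) were at 3132 to 7098 CPM with cilengitide, 1449 to 43265 CPM with vehicle, with vehicle 3 and 4 far above vehicle 1 and 2. T cell markers (Cd3e, Cd3d, Cd3g) lay between 19.6 to 40.2 CPM with cilengitide, 16.9 to 36.8 CPM with vehicle, and fibroblast markers between 16611 to 23111 CPM with cilengitide, 7751 to 33022 CPM with vehicle. Red blood cell markers (Hba-a1, Hba-a2, Hbb-b1, Alas2) summed to 49.7 to 149.7 CPM with cilengitide and 104 to 955 CPM with vehicle, highest in vehicle 2 and 4 and overlapping through cilengitide 4. In the red blood cell list 3 of 6 genes were lower (50% against 6.59%, median -2.54), among them Hbb-b1 and Hbb-b2, whose counts are identical. Identical counts are a single measurement, so these 3 calls are not independent. None of these markers was at 0 in all 8 wounds. In such bulk tissue, fewer cells of a type and less RNA per cell cannot be told apart. The GC content of the genes also moved with the group. The median log2 level of the GC-richest 10% of genes was set against that of the GC-poorest 10%. Genes averaging below 5 CPM were left out of both. The difference, GC-richest less GC-poorest, was -0.168 to 0.127 with cilengitide and -0.551 to -0.204 with vehicle. Its part in the results was not tested.

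RNAs of the alpha v integrin subunits, the receptors that cilengitide blocks, were lower for alpha v and beta 3. Of the 6 genes, only Itgb3, encoding the beta 3 subunit, was called (16.7% lower against 6.59% of all genes). Itgb3 was at 57.6, 70.1, 51.2 and 55.8 CPM in the cilengitide wounds and 181, 130.2, 119 and 67.3 CPM in the vehicle wounds, a log2 fold change of -1.09 ± 0.27 (SE), adjusted p = 0.0258. Its groups overlapped, since vehicle 4 fell below cilengitide 2, and the call was lost without any 1 of 6 wounds (all cilengitide wounds, vehicle 1 and vehicle 3). Itgav, the alpha v subunit, was at 127, 157, 123 and 197 CPM in the cilengitide wounds and 289, 179.7, 275 and 309.7 CPM in the vehicle wounds, and its log2 fold change of -0.82 ± 0.23 (SE), adjusted p = 0.037, was under 2-fold. Itgb1 (-0.67, adjusted p = 0.0608), Itgb5 (-0.18, 0.616), Itgb6 (1.89, 0.288) and Itgb8 (0.45, 0.208) did not pass the edgeR test. Itgb6, the epithelial partner, stood at 27.3, 55.6, 29.3 and 25.1 CPM in the cilengitide wounds and 4.04, 0.359, 0.732 and 31.6 CPM in the vehicle wounds, so that vehicle 4 alone among the vehicle wounds reached the cilengitide range.

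Levels per kilobase of transcript ordered the subunits alike in both groups for the upper part of the list. Itgb1 had the highest level, 231 ± 33.9 CPM per kb with cilengitide and 364 ± 58.2 with vehicle (SD, n = 4). Itgb5 followed at 80.8 ± 5.88 and 90.9 ± 30.1, Itgav at 21.4 ± 4.88 and 37.3 ± 8.16, and Itgb3 at 10.2 ± 1.40 and 21.5 ± 8.04. Itgb6 was at 7.02 ± 2.91 and 1.87 ± 3.07 and Itgb8 at 1.57 ± 0.243 and 1.14 ± 0.324. The mean ± SD ranges of neighbours overlapped for Itgav and Itgb3 and for Itgb6 and Itgb8 with vehicle and for Itgb3 and Itgb6 with cilengitide, so these pairs could not be ordered there. The ratio of Itgb3 to Itgav RNA ran from 0.283 to 0.455 with cilengitide and from 0.217 to 0.725 with vehicle (two-sided exact permutation test, n = 4 per group, p = 0.6).

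Among 16 genes for alpha v ligands, 4 were lower (25% against 6.59% of all genes) and none was higher. The list median was -0.62, and the count was 2 without cilengitide 1, 2 or 3 or vehicle 3 and 6 without vehicle 4. Spp1, encoding osteopontin, was at 679, 313, 410.0 and 1147 CPM in the cilengitide wounds and 1920.4, 1402, 6192 and 9468 CPM in the vehicle wounds, with no overlap and a log2 fold change of -2.92 ± 0.75 (SE), adjusted p = 0.0271. Thbs1, thrombospondin-1, was at 686, 493, 546 and 1424 CPM in the cilengitide wounds and 3232, 1252, 6365 and 11490.5 CPM in the vehicle wounds (-2.85 ± 0.73 (SE), adjusted p = 0.0269). Its lowest vehicle wound, vehicle 2, lay below cilengitide 4, and both calls were lost without cilengitide 1, 2 or 3 or without vehicle 3. Tgfb1 (108, 89.2, 90.9 and 116 against 213, 143, 266 and 305 CPM, -1.22 ± 0.24 (SE), adjusted p = 0.0133) and the matricellular gene Cyr61 (122, 114, 119 and 127 against 185, 305, 367 and 244 CPM, -1.21 ± 0.22 (SE), adjusted p = 0.0101) did not overlap between groups and stayed called without any single wound. Both also stayed called with DESeq2, whereas Cyr61 lost its call with all 3 groups in the fit. Fn1, fibronectin, (-0.59, adjusted p = 0.159) and Tnc, tenascin-C, (-1.10, 0.0696) did not pass the edgeR test.

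Of 7 genes for collagen- and fibronectin-binding integrins, Itga1 and Itga5 were lower (28.6% against 6.59% of all genes). Itga1, the alpha 1 subunit of a collagen receptor, was at 19.4, 21.3, 12.1 and 39.3 CPM in the cilengitide wounds and 104, 49.5, 70.6 and 53.2 CPM in the vehicle wounds (-1.60 ± 0.39 (SE), adjusted p = 0.024). The alpha 5 subunit gene Itga5, of the main fibronectin receptor, was at 216, 226, 168 and 265 CPM in the cilengitide wounds and 545, 347, 431 and 492 CPM in the vehicle wounds (-1.06 ± 0.21 (SE), adjusted p = 0.0123). Neither gene overlapped between groups, where 12.7% of all genes were separate in that direction. Itga1 lost its call without cilengitide 1, 2 or 3 or vehicle 3, and Itga5 without cilengitide 3 or vehicle 1.

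The epidermal keratins gave the widest spread between vehicle wounds. Krt14, the basal layer keratin, was at 17798, 19869.9, 16403 and 12122 CPM in the cilengitide wounds and 1003, 27.6, 96.7 and 8594 CPM in the vehicle wounds. Its partner Krt5 was at 5478, 6694, 5286 and 3731 CPM in the cilengitide wounds and 479.9, 19.1, 53.2 and 1474 CPM in the vehicle wounds. Every cilengitide wound exceeded every vehicle wound for both, yet neither passed the edgeR test, with log2 fold changes of 2.75 ± 1.52 (SE), adjusted p = 0.211 and 3.37 ± 1.23 (SE), adjusted p = 0.0782. Vehicle 2 and 3 were nearly devoid of both RNAs, and vehicle 4 held 8594 CPM of Krt14. Krt15, a keratin of basal and hair bulge cells, was at 302, 173, 147 and 136 CPM in the cilengitide wounds and 1.02, 0.649, 3.86 and 15.2 CPM in the vehicle wounds and was called (5.17 ± 1.08 (SE), adjusted p = 0.0154), a call that no single wound removed. In WT wounds Krt14 ran from 5429 to 13914 CPM and Krt15 from 367 to 1083 CPM.

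The stress keratins Krt6a, Krt6b, Krt16 and Krt17, which mark activated keratinocytes, lay above the vehicle wounds in all 4 cilengitide wounds but were not called, with log2 fold changes of 2.87, 2.38, 3.12 and 2.48 and edgeR adjusted p of 0.189, 0.307, 0.169 and 0.247. Krt6a was at 4988, 7105, 6061 and 4034 CPM in the cilengitide wounds and 363, 7.95, 33.4 and 2585 CPM in the vehicle wounds. Krt16 was at 7165, 7895, 6713 and 5064 CPM in the cilengitide wounds and 300.4, 8.16, 30.5 and 2708 CPM in the vehicle wounds. Vehicle 4 was again the wound that approached the cilengitide range, and without it all 4 genes were called higher. At an unadjusted p under 0.05 and at least 2-fold none was called, and DESeq2 called 2. Krt6b and Krt6a are near-identical copies whose reads may be split between them.

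The keratins of stratified layers showed the clearest epidermal difference, with 6 of 7 called higher (85.7% against 6.48% of all genes) and a list median of 6.58. Krt10 was at 20418, 6412, 7094 and 7019 CPM in the cilengitide wounds and 78.4, 5.32, 8.59 and 329 CPM in the vehicle wounds (6.58 ± 1.52 (SE), adjusted p = 0.0204). Krt1, its partner, was at 22299, 8583, 8739 and 8469 CPM in the cilengitide wounds and 81.1, 4.1, 4.24 and 605 CPM in the vehicle wounds (6.09 ± 1.76 (SE), adjusted p = 0.0402). Krt77 and Krt79 had log2 fold changes of 8.86 ± 1.16 (SE), adjusted p = 0.00449 and 7.93 ± 0.92 (SE), adjusted p = 0.00339, and their vehicle wounds held at most 2.17 and 4.32 CPM. Krt2 had 5 reads in all vehicle wounds together and 3198 in the cilengitide wounds (adjusted p = 0.0174). The latter were uneven, at 14, 0.662, 0.539 and 35.2 CPM, with most of the reads in cilengitide 1 and 4. Krt80 was also called (2.80 ± 0.87 (SE), adjusted p = 0.0494), and Krt78 was not (4.80 ± 1.63 (SE), adjusted p = 0.065). No wound overlapped between groups for any of the 7 genes, where 18.9% of all genes were separate in that direction. The calls for Krt10, Krt77 and Krt79 held without each wound in turn, Krt1 kept its call only without vehicle 2 or vehicle 4, Krt80 only without vehicle 4, and Krt2 lost its call without vehicle 3. The list count was 3 without vehicle 3.

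**Figure D2:**
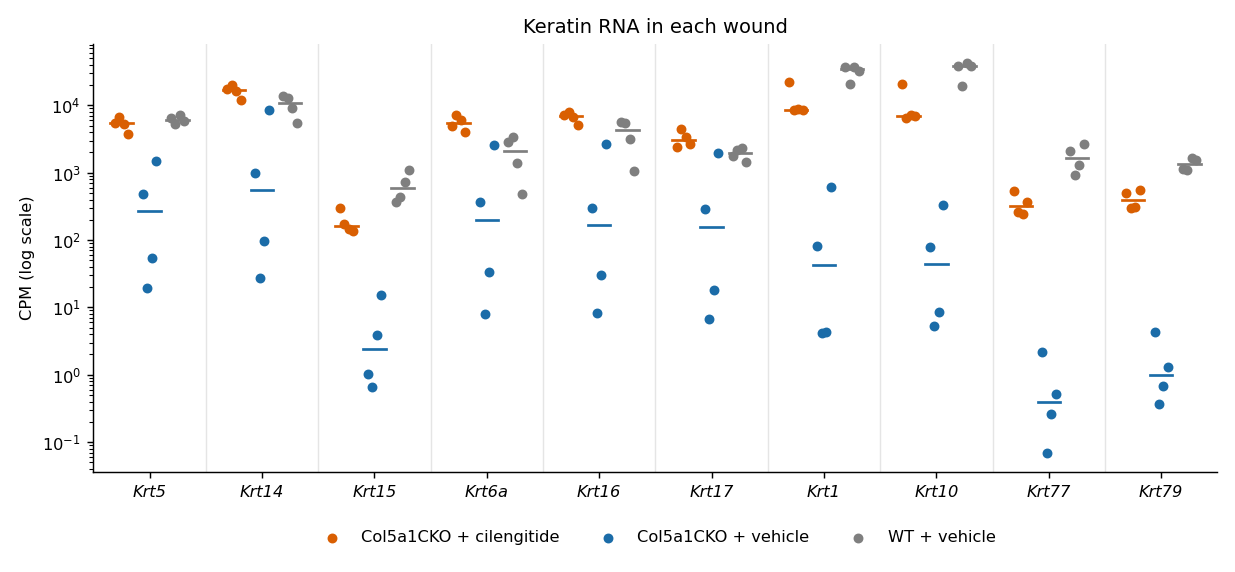
CPM (log scale) of 10 keratin genes in the 4 wounds of each group, with points in replicate order from left to right and a bar at the median. Cilengitide wounds sit above every vehicle wound, with cilengitide 1 apart from the others for Krt1 and Krt10, while vehicle wounds spread from 27.6 to 8594 CPM for Krt14.

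The ratio of a pair of RNAs within a wound does not change with the scaling of its library, and 9 such ratios were computed after the levels had been seen. Krt10 to Krt14 was 0.323 to 1.15 with cilengitide, 0.0383 to 0.192 with vehicle and 1.5 to 7.16 in WT wounds. Krt1 to Krt5 was 1.28 to 4.07, 0.0797 to 0.41 and 3.88 to 5.76 in the same order. Neither ratio overlapped between cilengitide and vehicle (two-sided exact permutation test, p = 0.0286, the smallest that 4 against 4 allows, 0.0857 when adjusted over the 9 ratios). Krt16 to Krt14 was also separate, at 0.397 to 0.418 against 0.295 to 0.315 (exact p = 0.0286, adjusted 0.0857). Krt6a to Krt14 overlapped, at 0.28 to 0.369 against 0.288 to 0.362 (exact p = 0.8), and it differed less than 2-fold over all 8 wounds while Krt14 itself ranged from 27.6 to 19870 CPM.

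**Figure D3:**
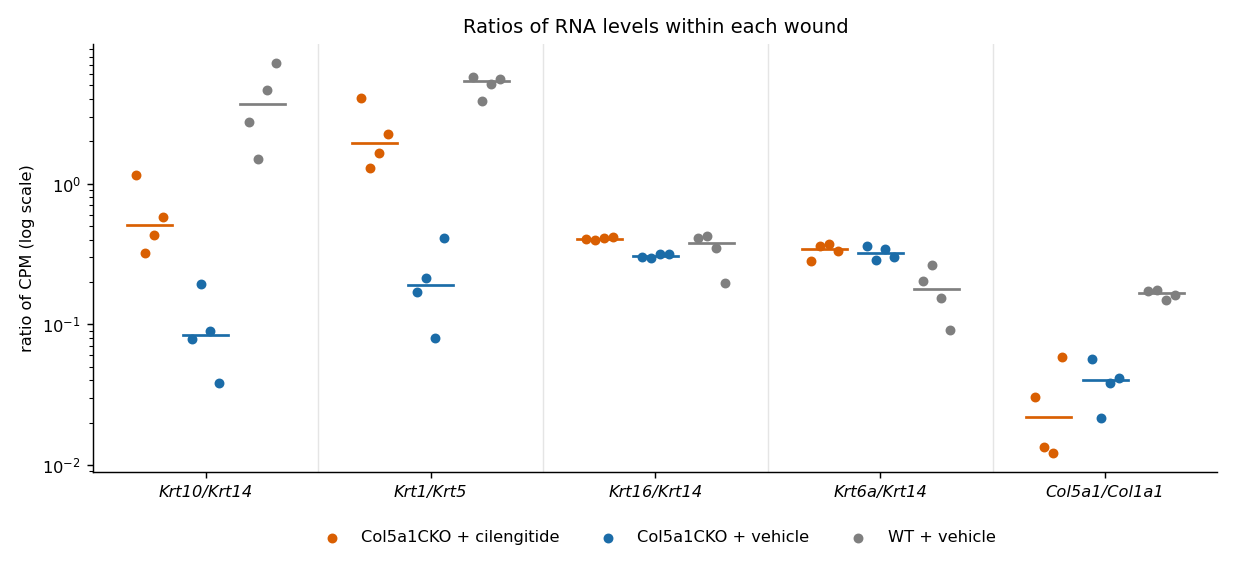
Ratios of CPM within each wound (log scale) for 4 keratin pairs and for Col5a1 to Col1a1, 4 wounds per group, with a bar at the median. Krt10 to Krt14 and Krt1 to Krt5 are lowest in vehicle wounds and highest in WT wounds, Krt16 to Krt14 forms a tight cluster in each Col5a1CKO group, and Krt6a to Krt14 overlaps.

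Other epidermal lists held higher calls in differing numbers. Of 28 cornified envelope genes, the crosslinked shell of dead surface cells, 10 were higher (35.7% against 6.48% of all genes) and none lower, with a median of 3.78. Lor, loricrin, was at 1234, 378, 549 and 519 CPM in the cilengitide wounds and 4.11, 0.0967, 0.172 and 21.8 CPM in the vehicle wounds (6.66 ± 1.75 (SE), adjusted p = 0.03), Flg2 at 198, 107, 116 and 108 CPM in the cilengitide wounds and 1.42, 0.0276, 0.0431 and 1.05 CPM in the vehicle wounds (7.70 ± 1.23 (SE), adjusted p = 0.00739) and Lce1m at 38.8, 24.3, 33.8 and 30.6 CPM in the cilengitide wounds and 0.273, 0, 0 and 0.373 CPM in the vehicle wounds (7.64 ± 1.07 (SE), adjusted p = 0.00547). Lor was lost without cilengitide 1, 2 or 3 or vehicle 1 or 3, and Flg2 and Lce1m were not lost. Without vehicle 4 the list count rose to 27, and it fell to 5 without cilengitide 1, cilengitide 3 or vehicle 1. Genes of the Sprr and Lce families have close copies, and their reads may be shared.

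In the desmosome list, 2 of 13 genes were called (15.4% against 6.48% of all genes), Jup and Dsg2, with a median of 2.64, and this count became 11 without vehicle 4 and 1 without any other single wound. Jup, plakoglobin, was at 1934, 2049, 1559.6 and 1226 CPM in the cilengitide wounds and 106, 35.6, 29.9 and 535 CPM in the vehicle wounds (3.24 ± 0.96 (SE), adjusted p = 0.0437), and its call was lost without each wound other than vehicle 4. Dsg2, a desmosomal cadherin, was at 22.3, 34.9, 22.9 and 18.1 CPM in the cilengitide wounds and 3.48, 1.52, 2.48 and 7.94 CPM in the vehicle wounds (2.66 ± 0.52 (SE), adjusted p = 0.0123) and kept its call. Of 9 genes for hemidesmosomes, which fix basal cells to the basement membrane, 6 were positive and 3 negative, and 1 (11.1% against 6.48%), Itgb4, was called (2.52 ± 0.71 (SE), adjusted p = 0.0368), and only without cilengitide 4 or vehicle 4 did it stay called. Fa2h, which hydroxylates fatty acids of epidermal and sebaceous lipids, was 1 of 2 called among 15 lipid barrier genes (13.3% against 6.48%). It was at 78.1, 29.9, 35.8 and 191 CPM in the cilengitide wounds and 0.324, 0.483, 0.129 and 0.175 CPM in the vehicle wounds (8.18 ± 0.87 (SE), adjusted p = 0.0029). Of the 15 genes, 12 were called without vehicle 4.

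Among 14 epidermal transcription factors 5 were higher (Klf4, Klf5, Ovol2, Gata3, Tfap2a), or 35.7% against 6.48% of all genes. All 14 were positive, and 14 were called without vehicle 4 but 2 without cilengitide 1 or vehicle 3. Gata3, a regulator of barrier and hair follicle fate, was at 93.1, 61.9, 53.6 and 57.8 CPM in the cilengitide wounds and 3.43, 1.8, 1.7 and 5.96 CPM in the vehicle wounds (4.36 ± 0.48 (SE), adjusted p = 0.003). Appendage genes followed: 8 of 15 hair keratins (53.3%), 5 of 9 hair follicle regulators (55.6%) and 4 of 9 sebaceous genes (44.4%) were higher, against 6.48% of all genes. None was lower. Krt71, an inner root sheath keratin, was at 37.4, 25.2, 32.9 and 137 CPM in the cilengitide wounds and 2.75, 0.469, 0.0215 and 0.175 CPM in the vehicle wounds (6.07 ± 1.31 (SE), adjusted p = 0.017). Elovl3, a sebaceous elongase, was at 22.6, 7.61, 12.3 and 55.4 CPM in the cilengitide wounds and 0.205, 0.166, 0.539 and 0 CPM in the vehicle wounds (6.74 ± 1.08 (SE), adjusted p = 0.0074). In the melanocyte list 4 of 6 genes were higher (66.7% against 6.48%) and 1 was lower (16.7% against 6.59%). Dct, a melanin enzyme, was at 8.16, 3.68, 4.03 and 27 CPM in the cilengitide wounds and 0.307, 0.0414, 0 and 0 CPM in the vehicle wounds (6.84 ± 1.30 (SE), adjusted p = 0.0117), and the pigment genes Tyr, Tyrp1 and Pmel were also higher, while their regulator Mitf was lower. Cilengitide 4 was highest for each of these 3 named appendage genes. Hair keratin calls fell to 5 without vehicle 3 and hair follicle regulator calls to 2 without cilengitide 2.

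Among 12 fibroblast growth factor and receptor genes, 3 were higher (25% against 6.48% of all genes) and 1 was lower. Fgfr2, which binds the keratinocyte growth factors, was at 77, 59.1, 57.7 and 54.7 CPM in the cilengitide wounds and 20.6, 14.1, 21.6 and 14.5 CPM in the vehicle wounds (1.80 ± 0.19 (SE), adjusted p = 0.00281), and Fgfr3 at 74.5, 58, 55.7 and 49.2 CPM in the cilengitide wounds and 3.7, 2.72, 1.55 and 12.8 CPM in the vehicle wounds (3.50 ± 0.66 (SE), adjusted p = 0.0114). Fgf22, a ligand of the epidermis, was at 5.69, 2.32, 3.42 and 2.09 CPM in the cilengitide wounds and 0.0683, 0.0552, 0 and 0.175 CPM in the vehicle wounds (5.47 ± 0.81 (SE), adjusted p = 0.00598). In contrast Fgf7, the keratinocyte growth factor made by stromal cells, was at 21.2, 8.59, 35.6 and 27.7 CPM in the cilengitide wounds and 150.3, 87.7, 123 and 33.1 CPM in the vehicle wounds (-2.09 ± 0.55 (SE), adjusted p = 0.0303), with vehicle 4 inside the cilengitide range, and its call was kept only without vehicle 2 or vehicle 4. Erbb2, a coreceptor of the EGF family, was at 125, 116, 106 and 96.9 CPM in the cilengitide wounds and 22.6, 17.9, 10.9 and 31 CPM in the vehicle wounds (2.41 ± 0.30 (SE), adjusted p = 0.00406), 1 of 3 called higher of 11 in that family (27.3%), of which 4 were negative and 5 were called without vehicle 4.

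Sterol synthesis genes were higher in nearly the whole list. Of 18 enzymes tested, 16 were higher (88.9% against 6.48% of all genes) and none lower, the median was 1.59, and cilengitide and vehicle wounds did not overlap for any of the 18, where 18.9% of all genes were separate in that direction. The 2 genes not called had an adjusted p under 0.05 with less than a 2-fold change. The count ran from 12 without vehicle 3 to 17 without cilengitide 2, and it was 1 in the wounds with Y-linked RNA alone. Keratinocyte marker RNA moved with these genes, and its part in them was not tested.

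Dhcr7, a reductase of the last steps of cholesterol synthesis, was at 117, 77.3, 83.7 and 73.9 CPM in the cilengitide wounds and 23.5, 19.7, 17.1 and 33.3 CPM in the vehicle wounds (1.89 ± 0.25 (SE), adjusted p = 0.00438). Mvk, mevalonate kinase, was at 75, 59.3, 60.8 and 53.7 CPM in the cilengitide wounds and 15.7, 14.7, 13.6 and 26 CPM in the vehicle wounds (1.82 ± 0.23 (SE), adjusted p = 0.00423). Vehicle 4, the vehicle wound with most keratin RNA, was also the highest vehicle wound for both genes. Fdps, farnesyl diphosphate synthase, was at 156, 119.9, 143 and 128 CPM in the cilengitide wounds and 42.5, 36.5, 28.5 and 53.1 CPM in the vehicle wounds (1.76 ± 0.20 (SE), adjusted p = 0.00331). Lss, which closes the sterol rings, was at 50.7, 42.9, 55.9 and 49.8 CPM in the cilengitide wounds and 17.4, 12.2, 14.5 and 17.8 CPM in the vehicle wounds (1.67 ± 0.15 (SE), adjusted p = 0.00217). Acat2, which makes acetoacetyl-CoA for the same pathway, was at 43.5, 30.6, 40.5 and 40.4 CPM in the cilengitide wounds and 11.3, 10.5, 10.6 and 9.89 CPM in the vehicle wounds (1.86 ± 0.13 (SE), adjusted p = 0.00139), with vehicle 4 the lowest vehicle wound. None of these calls was lost without a single wound.

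**Figure D4:**
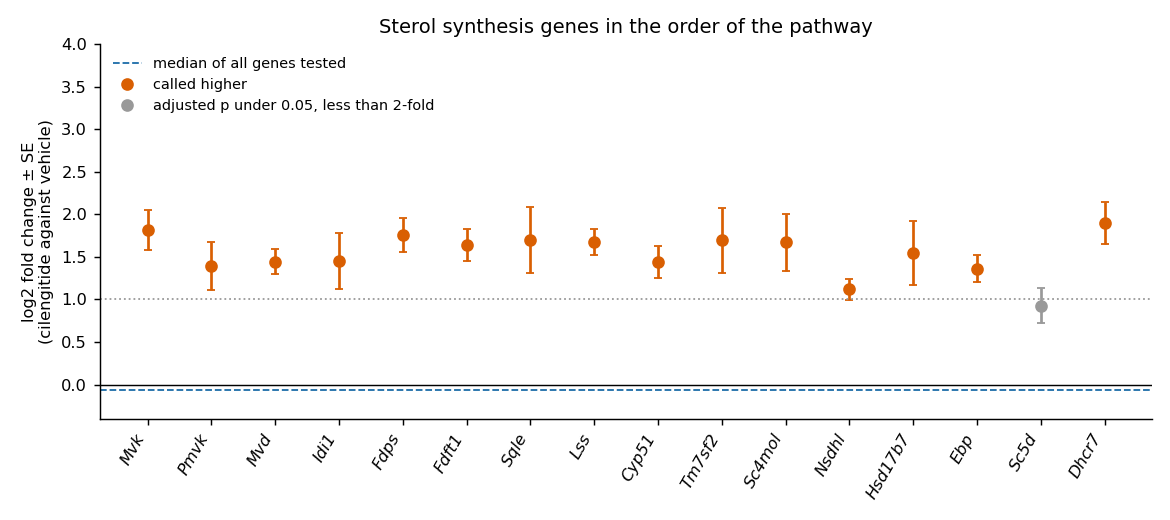
log2 fold change ± SE (edgeR, 4 wounds per group) of 16 of the 18 sterol synthesis genes, in the order of the pathway from left to right. All 16 lie above 0 and above the median of all genes (-0.06, dashed), and 15 are called higher (orange).

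The promoters of 3 of these genes are shown because their RNAs rose together. They were chosen after the values had been seen. The 150 bases before the RefSeq transcription start (GRCm38.p6, not the mm9 build of the counts) are printed with matches to CCAAT, on either strand, in capitals.
Mvk, chr5:114444119-114444268, plus strand: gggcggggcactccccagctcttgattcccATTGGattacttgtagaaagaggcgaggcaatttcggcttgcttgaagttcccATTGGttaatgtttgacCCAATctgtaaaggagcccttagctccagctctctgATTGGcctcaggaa
Dhcr7, chr7:143830064-143830213, plus strand: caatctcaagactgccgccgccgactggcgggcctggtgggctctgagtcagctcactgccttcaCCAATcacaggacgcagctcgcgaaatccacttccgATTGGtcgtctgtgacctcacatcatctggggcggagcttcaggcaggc
Lss, chr10:76531455-76531604, plus strand: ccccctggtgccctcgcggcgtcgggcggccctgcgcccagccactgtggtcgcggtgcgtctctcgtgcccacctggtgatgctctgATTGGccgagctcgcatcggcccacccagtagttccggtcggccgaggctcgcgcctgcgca

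Of the 18 tested sterol genes, 12 had a promoter in the RefSeq table, and 12 of 12 held CCAAT within 250 bases before to 50 after the start in at least 1 promoter, against 41.1% of all 27025 genes in the table and 42.3% of the 10907 tested genes with a promoter. The pentamer is short, and genes had up to 3 windows each. Over all genes called higher the share was 41.3%. The sequence TCACNCCAC, searched on both strands, was in none of the 12 and in 1.44% of all.

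Fatty acid synthesis had 6 of 9 genes higher (66.7% against 6.48% of all genes) and all 9 positive with an adjusted p under 0.05, which 12.7% of all genes were. Scd1, a desaturase, was at 369, 185, 248 and 835 CPM in the cilengitide wounds and 35.2, 44.6, 25.8 and 18.8 CPM in the vehicle wounds (3.71 ± 0.55 (SE), adjusted p = 0.00613). Elovl6, an elongase, was at 148, 76.3, 106 and 340.0 CPM in the cilengitide wounds and 16.3, 14.5, 7.47 and 8.05 CPM in the vehicle wounds (3.85 ± 0.55 (SE), adjusted p = 0.00577). Fasn, fatty acid synthase, was at 191, 206, 178 and 207 CPM in the cilengitide wounds and 97.8, 67.2, 42.8 and 44 CPM in the vehicle wounds (1.63 ± 0.27 (SE), adjusted p = 0.00816). For each of the 3 genes the groups were separate, and cilengitide 4 was the highest wound. Leaving out 1 wound left between 4 and 6 calls in the list.

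Several leukocyte RNAs were lower with cilengitide, as was red blood cell marker RNA, whose part in these results was not tested. Ptprc, the pan-leukocyte antigen CD45, was at 120.0, 104, 95.3 and 234 CPM in the cilengitide wounds and 442, 267, 990.3 and 964 CPM in the vehicle wounds, with no overlap and a log2 fold change of -2.29 ± 0.51 (SE), adjusted p = 0.0184. Itgam, the alpha M integrin of neutrophils and macrophages, was at 95.7, 92.8, 90.2 and 234 CPM in the cilengitide wounds and 418, 255, 1209.5 and 1418 CPM in the vehicle wounds (-2.71 ± 0.64 (SE), adjusted p = 0.0218). Cd68, a lysosomal protein of macrophages, was at 105, 108, 88 and 119.7 CPM in the cilengitide wounds and 200.4, 214, 372 and 445 CPM in the vehicle wounds (-1.57 ± 0.29 (SE), adjusted p = 0.0109). WT wounds had 34.8 to 54.1, 19.9 to 38.8 and 25.1 to 75 CPM of the 3 genes. Within each group the same wounds led: vehicle 3 and 4 among the vehicle wounds and cilengitide 4 among the cilengitide wounds. Cd68 kept its call without each wound, whereas Ptprc lost it without cilengitide 1, 2 or 3, and Itgam without those or vehicle 3.

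Of 13 leukocyte adhesion genes 9 were lower (69.2% against 6.59% of all genes), and of 23 macrophage genes 9 were lower (39.1%), with medians of -1.43 and -1.43 and none higher. Msr1, a scavenger receptor, was at 53.8, 34.2, 44 and 119.7 CPM in the cilengitide wounds and 213, 133, 715 and 639.9 CPM in the vehicle wounds (-2.78 ± 0.67 (SE), adjusted p = 0.0229). Cd86, a costimulatory ligand, was at 16.1, 13.9, 14.4 and 21.7 CPM in the cilengitide wounds and 40.4, 36.2, 82.2 and 67.3 CPM in the vehicle wounds (-1.79 ± 0.30 (SE), adjusted p = 0.00859). Msr1 lost its call without cilengitide 1, 2 or 3 or vehicle 3, and Cd86 kept it. The complement genes C1qa, C1qb and C1qc and the mannose receptor Mrc1 were among the 14 macrophage genes not called. The adhesion count fell to 2 without cilengitide 1 and the macrophage count to 5.

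Neutrophil genes were more variable. With a median of -2.65, 4 of 21 were called lower (19.0% against 6.59%), DESeq2 and an unadjusted p each gave 13, and the count ran from 1 without cilengitide 1, among others, to 11 without vehicle 2. Ngp, a secondary granule protein made in immature neutrophils, was at 1.61, 7.89, 2.43 and 4.57 CPM in the cilengitide wounds and 13.7, 51.5, 57.1 and 96.5 CPM in the vehicle wounds (-3.75 ± 0.72 (SE), adjusted p = 0.012), and kept its call, though not with all 3 groups in the fit. Cxcr2, the receptor for neutrophil-attracting chemokines, was at 43.5, 19.9, 36.9 and 123 CPM in the cilengitide wounds and 243, 82.7, 526 and 569 CPM in the vehicle wounds (-2.69 ± 0.76 (SE), adjusted p = 0.0379), overlapped through cilengitide 4 and vehicle 2, and kept its call only without cilengitide 4 or vehicle 2. The ratio of Csf3r to Ptprc RNA was 0.27 to 1.02 with cilengitide and 0.564 to 1.02 with vehicle (two-sided exact permutation test, n = 4 per group, p = 0.257), and that of Cd68 to Ptprc was 0.512 to 1.04 and 0.376 to 0.8 (exact p = 0.0571).

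Il1b, encoding interleukin-1 beta, was at 267, 87.4, 192 and 1046 CPM in the cilengitide wounds and 1599, 618, 10443 and 9795 CPM in the vehicle wounds, and at 5.5 to 94.5 CPM in WT wounds. Cilengitide 4 exceeded vehicle 2, and the log2 fold change of -3.84 ± 1.17 (SE), adjusted p = 0.0469, stayed past the threshold only without cilengitide 4, vehicle 1 or vehicle 2. Divided by Ptprc, Il1b was 0.842 to 4.47 with cilengitide and 2.31 to 10.5 with vehicle (exact permutation p = 0.143). Il18, a family member that keratinocytes store, moved the other way, at 77.3, 62.2, 64.5 and 53.9 CPM in the cilengitide wounds and 6.74, 8.11, 14.1 and 35.2 CPM in the vehicle wounds (1.99 ± 0.52 (SE), adjusted p = 0.0298), and lost its call without cilengitide 1, 2 or 3 or vehicle 3. In the interleukin-1 family as a whole, 4 of 14 genes were lower (28.6% against 6.59% of all genes) and 1 was higher (7.14% against 6.48%). No gene was lower without cilengitide 2, cilengitide 3 or vehicle 3.

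In the TNF and NF-kB feedback list, which also holds TNF receptors, 10 of 16 genes were lower (62.5% against 6.59% of all genes). The median was -1.86 and none was higher. Nfkbia, the inhibitor that NF-kB itself induces, was at 157, 76.3, 105 and 216 CPM in the cilengitide wounds and 286, 148, 1469 and 1376 CPM in the vehicle wounds (-2.59 ± 0.78 (SE), adjusted p = 0.0456). Tnfaip3, a deubiquitinase that ends the signal, was at 35.7, 20.6, 20.8 and 64.8 CPM in the cilengitide wounds and 117, 55.9, 369 and 385 CPM in the vehicle wounds (-2.73 ± 0.70 (SE), adjusted p = 0.0284), and the adaptor gene Traf1 at 13, 7.22, 8.67 and 18.3 CPM in the cilengitide wounds and 38, 22.8, 129.5 and 131 CPM in the vehicle wounds (-2.78 ± 0.64 (SE), adjusted p = 0.0202). Cilengitide 4 exceeded vehicle 2 for Nfkbia and Tnfaip3 but not for Traf1. These were calls that turned on few wounds: the count was 2 without cilengitide 1, 2 or 3, 3 without vehicle 3 and 13 without vehicle 2. Of the 3 named genes, Traf1 and Tnfaip3 were lost without any of cilengitide 1, 2 or 3 or vehicle 3, and Nfkbia also without cilengitide 4 or vehicle 4. Tnf itself was not called.

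The interleukin-6 family and STAT3 list, which holds cytokines, receptors and signalling genes, had 7 of 12 genes lower (58.3% against 6.59% of all genes). The count was 2 without cilengitide 1 or cilengitide 3 and 3 without cilengitide 2. Il6 was at 4.3, 0.736, 2.06 and 5.24 CPM in the cilengitide wounds and 34.6, 28.1, 36.1 and 8.7 CPM in the vehicle wounds (-3.13 ± 0.68 (SE), adjusted p = 0.0176), with vehicle 4 the lowest vehicle wound and WT wounds at 0.0714 to 0.642 CPM. Osm, oncostatin M of leukocytes, was at 16.5, 4.06, 11.3 and 37.1 CPM in the cilengitide wounds and 62.3, 33.1, 314 and 410.0 CPM in the vehicle wounds (-3.59 ± 0.999 (SE), adjusted p = 0.0356), with cilengitide 4 above vehicle 2. Il6 lost its call without cilengitide 3, and Osm without cilengitide 1, 2 or 3 or vehicle 3 or 4. The receptors Il6ra, Il6st, Osmr and Lifr and Stat3 were not called.

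Of 15 CXC chemokine and receptor genes 5 were lower and none higher, and of 21 CC genes 6 were lower and 1 higher (33.3% and 28.6% lower against 6.59% of all genes). DESeq2 and an unadjusted p each gave 10 and 12 lower. Cxcl1, a neutrophil attractant, was at 29.4, 3.78, 14 and 32.5 CPM in the cilengitide wounds and 119, 80.5, 418 and 270.4 CPM in the vehicle wounds (-3.50 ± 0.80 (SE), adjusted p = 0.0201), with no overlap and a call lost without cilengitide 3. Ccr2, the receptor of inflammatory monocytes, was at 63.4, 77.6, 67.9 and 75.8 CPM in the cilengitide wounds and 172, 221, 211 and 151 CPM in the vehicle wounds (-1.42 ± 0.16 (SE), adjusted p = 0.003), among the most even differences in these data. Ccl20, a chemokine of epithelium, was the CC gene that was higher, at 1.98, 0.471, 1.57 and 1.08 CPM in the cilengitide wounds and 0.137, 0.11, 0 and 0 CPM in the vehicle wounds (4.23 ± 1.001 (SE), adjusted p = 0.0212), and lost its call without cilengitide 1 or 3. The CXC count ran from 1 without cilengitide 3 to 8 without cilengitide 4.

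The promoters of Cxcl1 and Nfkbia are shown as called genes that NF-kB is known to induce, chosen after their values had been seen. The 150 bases before the RefSeq start (GRCm38.p6) are printed, 5′ to 3′ on the strand of the gene, with the match to GGANTTTCC, on either strand, in capitals.
Cxcl1, chr5:90891095-90891244, plus strand: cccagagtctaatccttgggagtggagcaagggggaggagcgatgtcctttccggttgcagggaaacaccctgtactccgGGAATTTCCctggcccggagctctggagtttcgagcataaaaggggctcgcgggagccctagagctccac
Nfkbia, chr12:55492648-55492797, minus strand: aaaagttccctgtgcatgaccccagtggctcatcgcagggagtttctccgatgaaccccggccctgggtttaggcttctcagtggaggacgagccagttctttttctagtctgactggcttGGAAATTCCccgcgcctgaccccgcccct

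The searched letters are part of the kappa B consensus. They were in the promoter window of 5 of 13 TNF and NF-kB genes with a promoter (Ltb, Nfkb2, Nfkbia, Tnfaip2, Tnfaip3) and of 4 of 12 CXC genes (Cxcl1, Cxcl2, Cxcl3, Cxcl10), against 1.45% of all genes in the table. They were in 3.30% of genes called lower and in 1.95% of genes called higher. Cxcl2 and Cxcl3 hold a match and were not called. A form with 1 further G at its 5′ end was searched first and was in 3 of 13 TNF and NF-kB genes, 3 of 12 CXC genes and 0.466% of all genes in the table, and in 1.37% of genes called lower and 0.976% of genes called higher. The shorter form was taken up after those values had been seen, and it includes every match of the longer one. A match is a description of the letters only.

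**Figure D5:**
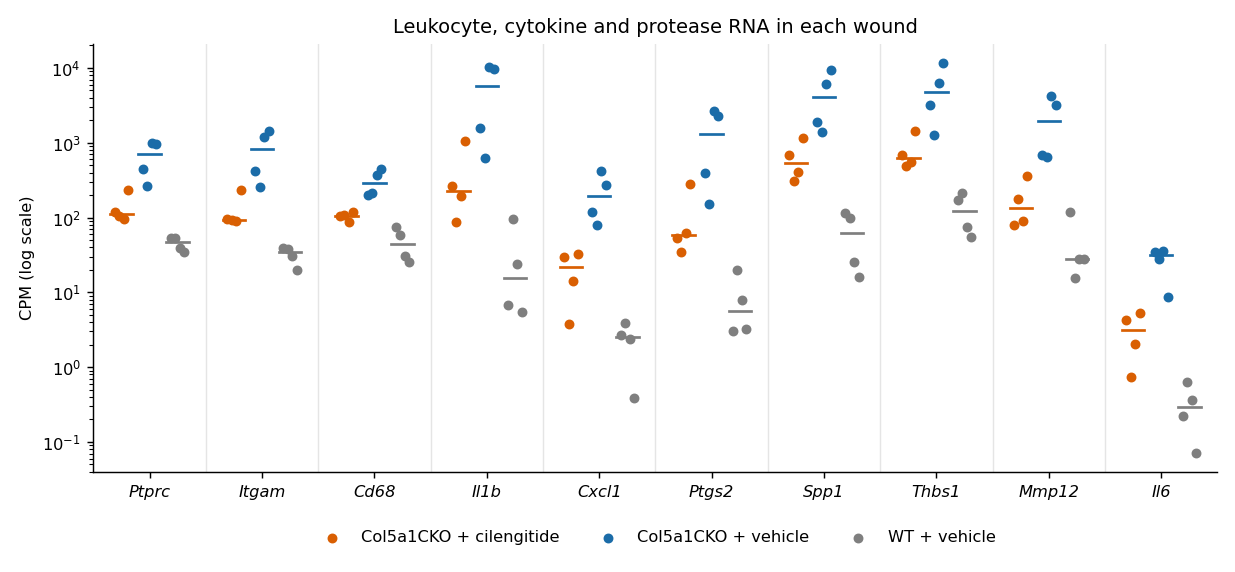
CPM (log scale) of 10 leukocyte, cytokine, ligand and protease genes in the 4 wounds of each group, with points in replicate order from left to right and a bar at the median. Vehicle wounds are highest for all 10 by their median, WT wounds lowest, and cilengitide 4 (rightmost orange point) reaches the lower vehicle wounds for Il1b, Ptgs2 and Thbs1.

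Interleukin-17 genes fell in all 4 cilengitide wounds. Il17f was at 1.28, 0.25, 0.507 and 0.904 CPM in the cilengitide wounds and 23.1, 19.2, 39.5 and 27.7 CPM in the vehicle wounds (-5.23 ± 0.55 (SE), adjusted p = 0.00279), and Il17a at 0.975, 0.338, 0.682 and 3.96 CPM in the cilengitide wounds and 14.8, 57.7, 55.6 and 49.4 CPM in the vehicle wounds (-4.91 ± 0.88 (SE), adjusted p = 0.0102). The WT wounds held at most 0.695 and 0.583 CPM. Il2ra, the interleukin-2 receptor alpha chain, was at 5.6, 6.08, 8.77 and 12.3 CPM in the cilengitide wounds and 47.2, 34.9, 63.7 and 16.3 CPM in the vehicle wounds (-2.32 ± 0.44 (SE), adjusted p = 0.0118) and Gzmb, granzyme B, at 2.18, 2.09, 3.03 and 1.81 CPM in the cilengitide wounds and 7.73, 13, 24.1 and 5.33 CPM in the vehicle wounds (-2.48 ± 0.47 (SE), adjusted p = 0.0117). All 4 calls (20% of the list against 6.59% of all genes) held without each wound in turn, and the groups were separate. The other 16 of 20 T and cytotoxic lymphocyte genes, Cd3d, Cd3e, Cd3g, Cd4 and Cd8a among them, were not called, and the list median was -0.32.

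Pattern recognition receptors had 9 of 15 genes lower (60% against 6.59%), with 5 without cilengitide 1, 2 or 3 or vehicle 3. Tlr2, a receptor for bacterial lipopeptides, was at 64.8, 23.4, 30.4 and 65.6 CPM in the cilengitide wounds and 181, 80.2, 336 and 383 CPM in the vehicle wounds (-2.43 ± 0.57 (SE), adjusted p = 0.0214), and Clec7a, the beta-glucan receptor dectin-1, at 86.6, 40.5, 48.1 and 123 CPM in the cilengitide wounds and 253, 202, 510.2 and 512 CPM in the vehicle wounds (-2.33 ± 0.47 (SE), adjusted p = 0.0142). Tlr2 lost its call without cilengitide 2 or 3 or vehicle 3, and Clec7a did not. Among 25 interferon-stimulated genes 9 were lower (36% against 6.59%), all 25 were negative, and the count ran from 1 without cilengitide 1 to 11 without vehicle 2. Rsad2, viperin, was at 9.89, 12.3, 15.8 and 17.9 CPM in the cilengitide wounds and 55.8, 22.1, 88.7 and 160.1 CPM in the vehicle wounds (-2.57 ± 0.56 (SE), adjusted p = 0.0181) and lost its call without cilengitide 1. The guanylate-binding protein gene Gbp2 was at 20.6, 33.5, 27.8 and 31.6 CPM in the cilengitide wounds and 118, 83.3, 73.5 and 101 CPM in the vehicle wounds (-1.74 ± 0.21 (SE), adjusted p = 0.00339) and kept it.

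Ptgs2, the inducible cyclooxygenase, was at 53.5, 34.9, 62.7 and 284 CPM in the cilengitide wounds and 394, 151, 2639.9 and 2252 CPM in the vehicle wounds (-3.66 ± 1.11 (SE), adjusted p = 0.0471), with cilengitide 4 above vehicle 2 and a call kept only without cilengitide 4, vehicle 1 or vehicle 2. Ptgir, the prostacyclin receptor, was at 5.27, 3.34, 3.76 and 7.48 CPM in the cilengitide wounds and 33.1, 15.7, 29.7 and 19.3 CPM in the vehicle wounds (-2.31 ± 0.34 (SE), adjusted p = 0.00625) and kept its call. In that list of 15 genes, 5 were lower (33.3% against 6.59% of all genes) and 2 (Ptgs1, Alox12) higher (13.3% against 6.48%). Only 1 was lower without cilengitide 1, cilengitide 2, cilengitide 3 or vehicle 3.

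Several matrix proteases were lower. Of 19 matrix metalloproteinase genes 7 were lower (36.8% against 6.59%), with 1 without cilengitide 1 and 2 without cilengitide 2, cilengitide 3 or vehicle 3. Mmp12, macrophage elastase, was at 78.4, 179, 90.9 and 361 CPM in the cilengitide wounds and 688, 642, 4181 and 3196 CPM in the vehicle wounds (-3.64 ± 0.85 (SE), adjusted p = 0.0208). Mmp3, stromelysin-1, was at 285, 70.1, 223 and 141 CPM in the cilengitide wounds and 2169, 564, 1090.4 and 345 CPM in the vehicle wounds (-2.54 ± 0.67 (SE), adjusted p = 0.029). Mmp8, neutrophil collagenase, was at 10.4, 6.44, 5.82 and 44.6 CPM in the cilengitide wounds and 71.1, 35.3, 273 and 330.1 CPM in the vehicle wounds (-3.42 ± 0.99 (SE), adjusted p = 0.0399), with cilengitide 4 above vehicle 2. Mmp12 was lost without cilengitide 1, 2 or 3 or vehicle 3, Mmp8 also without vehicle 4, and Mmp3 without any cilengitide wound or vehicle 1 or 3. In the TGF-beta pathway list 2 of 15 genes were lower (13.3% against 6.59%). Inhba, an activin subunit of the TGF-beta family, was at 43.9, 26.6, 22 and 49.4 CPM in the cilengitide wounds and 134, 64.7, 139 and 188 CPM in the vehicle wounds (-1.90 ± 0.39 (SE), adjusted p = 0.0139) and kept its call. In the contractile and myofibroblast list 1 of 12 genes was lower, and that share of 8.33% was near the 6.59% of all genes. This gene, Cnn1, a calponin of smooth muscle and myofibroblasts, was at 19.1, 22.6, 11.2 and 27.5 CPM in the cilengitide wounds and 59.2, 39.3, 37.8 and 55.8 CPM in the vehicle wounds (-1.27 ± 0.29 (SE), adjusted p = 0.0193) and lost its call without cilengitide 1.

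None of 8 genes for collagen V and its fibril partners, 8 other matrix collagens, 10 small leucine-rich proteoglycans and 12 elastic fibre genes was called by edgeR. At an unadjusted p under 0.05 and at least 2-fold, and with DESeq2, the counts were 0, 0, 1 and 0, and without vehicle 4 edgeR called 1 gene lower in each list but the other matrix collagens. Medians were -0.48, -0.36, -0.35 and 0.21. Col1a1 was at 14797, 18934, 19464 and 15489 CPM in the cilengitide wounds and 23206, 26531, 15763 and 6046 CPM in the vehicle wounds (-0.07 ± 0.50 (SE), adjusted p = 0.936), and its sign turned when cilengitide 1 or 4 or vehicle 1 or 2 was left out. In the basement membrane collagen list 2 of 11 genes were higher (18.2% against 6.48% of all genes), but 7 were negative and the median was -0.23. Col4a6 was called, at 5.53, 4.07, 2.95 and 2.99 CPM in the cilengitide wounds and 0, 0.0552, 0.0862 and 0 CPM in the vehicle wounds (6.68 ± 0.85 (SE), adjusted p = 0.00406), as was Col4a5.

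Other lists gave no call in either direction, namely MHC class II (10 genes, median -0.32), endothelial (16, -0.60), cell cycle and mitosis (27, 0.44), respiratory chain (27, 0.29) and skeletal muscle (20, 0.15). DESeq2, and an unadjusted p under 0.05 with at least 2-fold, also called 0 in each, and leaving out 1 wound gave at most 2 calls in a list (endothelial, lower, without vehicle 4, and skeletal muscle, higher, without vehicle 1). In the cell cycle list 23 of 27 genes were positive and 5 had an adjusted p under 0.05 with less than a 2-fold change, or 18.5%, where 24.9% of all genes had an adjusted p under 0.05 at any fold and 7120 of 15563 were positive.

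Ranked by adjusted p among separate genes, the higher genes included the following. Skint5, of a family expressed by keratinocytes and thymic epithelium, was at 10.1, 6.77, 11.3 and 10.5 CPM in the cilengitide wounds and 0.0853, 0.0414, 0.151 and 0.0658 CPM in the vehicle wounds (6.81 ± 0.42 (SE), adjusted p = 0.00139). Cd207, langerin of Langerhans cells, was at 10.2, 7.89, 5.6 and 6.64 CPM in the cilengitide wounds and 0.41, 0.304, 0.172 and 0.285 CPM in the vehicle wounds (4.67 ± 0.34 (SE), adjusted p = 0.00139). Bcl11b, a transcription factor of T cells and keratinocytes, was at 111, 100.02, 78.8 and 75.9 CPM in the cilengitide wounds and 17.9, 14.2, 15.3 and 19.2 CPM in the vehicle wounds (2.44 ± 0.17 (SE), adjusted p = 0.00139). Celsr1, a planar polarity cadherin of skin, was at 63.5, 63.6, 51.8 and 54.8 CPM in the cilengitide wounds and 6.81, 5.63, 5.54 and 10.1 CPM in the vehicle wounds (3.04 ± 0.22 (SE), adjusted p = 0.00139), and Extl1 at 19.1, 11.5, 12.6 and 13.2 CPM in the cilengitide wounds and 0.751, 0.759, 1.16 and 0.636 CPM in the vehicle wounds (4.08 ± 0.27 (SE), adjusted p = 0.00139). In all 5 the vehicle wounds, vehicle 4 included, stayed far below the cilengitide wounds, and no call depended on 1 wound. Only genes with separate groups were ranked, so their separation was set by the choice. Skint genes are a multigene family whose reads may be shared.

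The lower genes with the smallest adjusted p had small, even differences. Cmklr1, the chemerin receptor, was at 23.5, 29, 26.5 and 28 CPM in the cilengitide wounds and 57.6, 63.7, 55.4 and 57.1 CPM in the vehicle wounds (-1.14 ± 0.10 (SE), adjusted p = 0.00217). Slc7a7, an amino acid transporter of macrophages, was at 11.4, 11.7, 11.2 and 11.1 CPM in the cilengitide wounds and 25.9, 25.2, 21.7 and 22.3 CPM in the vehicle wounds (-1.08 ± 0.10 (SE), adjusted p = 0.00217), and Acp2, a lysosomal phosphatase, at 48.6, 49.4, 51.5 and 54.6 CPM in the cilengitide wounds and 115, 103, 132 and 112 CPM in the vehicle wounds (-1.19 ± 0.12 (SE), adjusted p = 0.00217). The purinergic receptor P2rx4 was at 41.7, 45, 47.7 and 42.6 CPM in the cilengitide wounds and 88.9, 89.4, 107 and 101 CPM in the vehicle wounds (-1.14 ± 0.11 (SE), adjusted p = 0.00217), and its metabotropic relative P2ry6 at 20.6, 19.6, 21.8 and 21.8 CPM in the cilengitide wounds and 39.1, 45.5, 41.3 and 40.6 CPM in the vehicle wounds (-1.001 ± 0.09 (SE), adjusted p = 0.00217). Cyp4v3, a fatty acid hydroxylase, was at 20.7, 19.3, 18.3 and 21 CPM in the cilengitide wounds and 48.4, 43.3, 62.6 and 49.2 CPM in the vehicle wounds (-1.37 ± 0.14 (SE), adjusted p = 0.0023). In all 6 the vehicle wounds lay close together, unlike those of Il1b and Itgam. Ranking by adjusted p among separate genes favours genes with little spread, so this contrast follows in part from the choice. P2ry6 sat at the 2-fold limit and lost its call under most settings, among them 6 of the 8 single wounds left out, all cilengitide wounds and vehicle 1 and 2. Slc7a7 lost its call when counts were scaled by library size only.

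Set beside WT + vehicle wounds, which share no wound with either group, cilengitide wounds lay between the other two for several genes. Krt77 was at 922 to 2700.3 CPM in WT wounds, Skint5 at 26.5 to 62.8, Cd207 at 15.6 to 29.3, Il6 at 0.0714 to 0.642, Thbs1 at 55.6 to 209.9 and Spp1 at 16.3 to 114. For these 6 genes no WT wound overlapped a cilengitide wound. Mvk at 68.2 to 89.3 CPM and Acat2 at 31.9 to 39.3 in WT wounds did overlap the cilengitide wounds. Stress keratins were not intermediate. Their summed level was 16853 to 28141 CPM with cilengitide, above every vehicle wound (31.3 to 12171) and every WT wound (3487 to 15638). No test was run against WT wounds.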

How the data were processed

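RNA of 12 wounds was sequenced from stranded libraries, and the deposited table holds the authors' whole-number read counts per gene symbol. The submitters' processing notes name HISAT2 and mm9, and the methods describe counting over RefSeq exons without saying that this covers these libraries. The table holds 22830 named genes and 1 blank row, at most 2e-04% of counts, which was left out. Even counts made up 55.8 to 64.5% of counts from 1 to 19, so small counts are not independent reads. The robust quasi-likelihood test of edgeR (4.0.16, R 4.3.3) was run after TMM scaling on genes passing filterByExpr (minimum count 10), with p-values adjusted by the Benjamini-Hochberg method, 4 wounds against 4, and genes were called at adjusted p under 0.05 and at least 2-fold. CPM are TMM-scaled counts per 1e+06 counts. P-values measure the spread between these wounds. DESeq2 1.42.0 and the other alternatives are given in the closing section. Scripts were tested on simulated data. Promoters came from RefSeq tables (GRCm38.p6).

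Named genes were those with the smallest adjusted p among separate groups, up to 4 called members per list with the largest change, genes the study names, and all alpha v integrin, ligand and keratin genes, and not all are printed. Of the sterol synthesis list, 2 genes are counted and not reported here by name. Lss and a few uncalled or listed genes outside this rule were chosen after their values were seen. The wounds and gene lists were chosen with earlier results of these data known. Genes that may share reads (Hbb-b1 and Hbb-b2 have identical counts) were counted as separate genes.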

Additional observations from a re-analysis of the deposited data

Results flagged for a closer look

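In 196 sets of 4 wounds (98 named genes in each Col5a1CKO group), 1 wound stood apart from the other 3 by a gap above 0.829 of the range in 22 (11.2%). About 5% of sets drawn from normally distributed values would pass that cutoff. CPM need not be normally distributed, and in each of the 22 sets the wound apart was the highest. The share of 11.2% was therefore not read as an excess. Genes are not independent, and the sets share the same 8 wounds.

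Vehicle 4 stood apart above the other vehicle wounds for 11 genes. The values were 8594 CPM for Krt14, 2585 for Krt6a, 4924 for Krt6b, 2708 for Krt16, 1954 for Krt17, 605 for Krt1, 19.5 for Krt78, 157 for Krt80, 535 for Jup, 31.6 for Itgb6 and 26.0 for Mvk. The other vehicle wounds reached at most 1003 CPM for Krt14, 363 for Krt6a and 4.04 for Itgb6. For Mvk they lay at 13.6 to 15.7 CPM. Vehicle 1 stood apart with 2.75 CPM for Krt71 and 0.307 CPM for Dct.

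Cilengitide 1 stood apart for keratins of stratified layers, with 22299 CPM for Krt1, 20418 for Krt10, 249 for Krt78 and 198 for Flg2. Cilengitide 4 stood apart for Krt71 (137 CPM), Mmp8 (44.6), Itgam (234) and Ptgs2 (284). Cilengitide 2 stood apart for Itgb6, at 55.6 CPM against 25.1 to 29.3 CPM.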

How the results depend on the processing

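Counts of called genes stayed within 1.5-fold of 1008 higher and 1025 lower under DESeq2 (1382 and 1480), other scaling, no count filter, all 3 groups in 1 fit, Y-linked RNA as a covariate and an unadjusted p. At a 3-fold limit 516 genes were lower. Without 1 wound the counts ran from 695 to 1674 higher and from 334 to 1417 lower. In the 5 wounds with Y-linked RNA, a setting chosen after seeing the data that leaves 2 against 3, 45 were higher and 2 lower, and the log2 fold changes of Col1a1 (0.057) and Itgb5 (0.00037) turned positive. The Col5a1 log2 fold change ran from -1.08 to -0.05 and that of Col1a1 from -0.35 to 0.18 without 1 wound. Of 82 genes called among those named, 49 kept their call without each of 8 wounds in turn. Some list counts moved by more than 1.5-fold with DESeq2 and with an unadjusted p: 5 and 4 desmosome, 8 and 6 lipid barrier, 11 and 7 epidermal transcription factor and 3 and 2 hemidesmosome genes were higher, and by both 8 interleukin-1 family and 5 red blood cell genes were lower. In the wounds with Y-linked RNA no list had a lower call other than T and cytotoxic lymphocytes, with 1, and Ptgir lost its call. The macrophage, leukocyte adhesion, TNF and NF-kB, pattern recognition and metalloproteinase lists thus had 0. Higher calls there were 1 suprabasal keratin and 3 sebaceous genes, and 0 in the cornified envelope, hair keratin and fatty acid synthesis lists. The cause of these shifts was not tested. Scaling by library size alone gave 1217 higher and 833 lower and a median of all genes of 0.03 in place of -0.06. No paired analysis was possible because the replicate numbers used here only name wounds in accession order, and the groups share none of the numbers that open the titles. The labels do not say what those numbers name. Depth was at least 51211600 counts in every wound, and 3 counts correspond to 0.0439 to 0.0586 CPM. Counting noise and the spread between wounds were not separated.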
